A study of Mus musculus with 6 samples.

Results

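The heat shock proteins, their co-chaperones and the TRiC chaperonin were described in sorted mouse fat stromal cells with and without expression of a Zfp423 reporter. Members were taken by symbol: the HSP70 and HSP110, HSP90 and small heat shock protein genes, the mitochondrial chaperonin genes Hspd1 and Hspe1, the J-domain genes of classes A, B and C, the TRiC subunit genes, the BAG genes 1 to 6 and the HSP-binding genes Hspbp1 and Hspbap1. Of the chaperones of the endoplasmic reticulum, Hspa5, Hsp90b1, Dnajb9, Dnajb11, Dnajc3 and Dnajc10 were left out by name, and no others. The rule gave 79 genes, with 147 probes, of the 19057 genes to which a probe was assigned by a single symbol. Of these members 52 had a probe that passed the detection filter, against 8819 genes of the whole array. The rule uses symbols and no measured value, but the members were chosen with earlier results of these data known.

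RNA was measured on 6 Illumina 1-colour bead arrays, 1 per sample, from the epididymal fat of male Zfp423-GFP reporter mice aged 5 weeks. Cells of the stromal vascular fraction, which is fat tissue without its adipocytes, were sorted as positive for PDGFRβ and negative for CD31 and CD45, and then split by GFP fluorescence. The 3 GFP-positive and 3 GFP-negative samples thus came from the same strain, sex, age and PDGFRβ gate and were separated by GFP fluorescence. The samples were called biological replicates; the number of animals behind each, and how closely GFP follows the Zfp423 transcript, were not given in the sources used here, and the p-values below measure the spread between these samples.

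Chaperones bind unfolded or partly folded proteins and let them fold, travel or be degraded. HSP70 does this in cycles of ATP hydrolysis that J-domain proteins start and that nucleotide exchange factors, such as HSP110 and BAG proteins, complete; small heat shock proteins hold unfolded clients without ATP, and TRiC is a barrel that folds actin, tubulin and other cytosolic proteins. A subset of these genes is switched on by heat shock factor after heat or other stress, tissue dissociation included, and many are expressed in unstressed cells. Here 8 genes were listed by name as inducible, and all other members were counted as constitutive. The constitutive class is thus a remainder, and its name does not show how each gene responds to stress.

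Heat shock factor binds inverted repeats of a short unit. The pair of 2-unit forms, GAANNTTC and TTCNNGAA, and the 3-unit form in which these overlap were searched on both strands in RefSeq promoter windows of 300 bases (250 before and 50 from the first transcribed base, build GRCm38.p6). Windows were found for 65 of the 79 members. A 2-unit form lay in 15.06% of all 32851 promoter windows and in 21 of 84 member windows (25.0%). It lay in 7 of 9 windows of the stress-inducible members. The 3-unit form lay in 0.603% of all windows and in 6 of the 84 member windows, those of Hsph1, Dnajb6, Hspd1 and Hspe1. Some of these windows overlap and hold the same match. By gene the 3-unit form lay in 4 of 65 members (6.15%) and in 0.662% of all genes with a window. Shown here, with matches in capitals, are the 250 bases upstream of the inducible HSP70 genes and of the inducible small heat shock protein genes. The whole stretch between Hspd1 and Hspe1, a head-to-head gene pair, is also shown. Hspa1a (chr17:34972157-34972406, minus strand) and Hspa1b (chr17:34959239-34959488, minus strand) differed at 3 of 250 bases (98.8% identity), and each had 1 match, 96 bases short of the first transcribed base. Hspb1 (chr5:135887669-135887918, plus strand) had 2 matches. Hspb8 (chr5:116422865-116423114, minus strand) had none upstream. The 1 match counted in its window lay past the first transcribed base, outside the stretch shown. The stretch of 215 bases between Hspd1 and Hspe1 (chr1:55087933-55088147, plus strand) held 3 overlapping 2-unit matches that form 2 of the 3-unit kind. A match is a run of letters and not a shown binding site.
Hspa1a: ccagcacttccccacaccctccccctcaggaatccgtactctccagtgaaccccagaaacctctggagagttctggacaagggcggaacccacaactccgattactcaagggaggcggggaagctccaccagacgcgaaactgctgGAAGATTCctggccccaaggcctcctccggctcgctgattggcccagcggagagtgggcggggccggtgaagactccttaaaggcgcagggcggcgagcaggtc
Hspa1b: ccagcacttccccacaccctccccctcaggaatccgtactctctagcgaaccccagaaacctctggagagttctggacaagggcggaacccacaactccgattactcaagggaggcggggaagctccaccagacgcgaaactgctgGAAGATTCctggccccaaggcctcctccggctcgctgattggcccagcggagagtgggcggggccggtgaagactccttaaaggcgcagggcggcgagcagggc
Hspb1: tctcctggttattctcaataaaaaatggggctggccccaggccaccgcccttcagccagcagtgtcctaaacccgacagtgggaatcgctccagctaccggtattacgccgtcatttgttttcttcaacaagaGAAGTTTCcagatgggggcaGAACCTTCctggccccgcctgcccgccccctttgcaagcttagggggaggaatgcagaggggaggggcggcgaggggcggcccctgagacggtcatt
Hspb8: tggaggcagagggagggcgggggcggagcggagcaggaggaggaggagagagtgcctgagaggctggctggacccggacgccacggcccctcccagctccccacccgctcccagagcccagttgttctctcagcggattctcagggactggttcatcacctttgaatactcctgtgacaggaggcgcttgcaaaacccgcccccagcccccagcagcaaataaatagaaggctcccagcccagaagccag
Hspd1-Hspe1: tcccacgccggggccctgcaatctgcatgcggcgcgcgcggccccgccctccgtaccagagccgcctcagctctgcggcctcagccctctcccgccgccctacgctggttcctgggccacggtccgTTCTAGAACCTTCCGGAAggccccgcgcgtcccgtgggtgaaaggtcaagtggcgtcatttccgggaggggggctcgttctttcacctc

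Each array detected between 13068 and 14026 probes, and the median raw signal ran from 145.8 to 162.0. Correlations between arrays were 0.982 to 0.990 within and 0.948 to 0.960 between the groups. All 6 stromal markers were detected on all 6 arrays, and the leukocyte genes Ptprc, Adgre1 and Tyrobp on none. Of the stromal markers 2 were called higher in GFP-positive cells, beside 8.65% of all tested genes. These were Pdgfrb, the gene of the sort marker (0.58 ± 0.11, limma adjusted p = 0.0172), and Col1a2 (0.74 ± 0.10, limma adjusted p = 0.00394). Other leukocyte markers moved with the groups: the summed normalized intensity of the 6 with a probe, the undetected ones included, ran from 678 to 1057 in GFP-positive and from 238 to 294 in GFP-negative samples. The sum over 9 mural markers, genes of pericytes and smooth muscle cells, ran from 8457 to 12793 and from 4620 to 6201, and the 4 mural markers detected on all 6 arrays (Acta2, Des, Myh11 and Notch3) were higher in GFP-positive cells, beside 8.65% of all tested genes. Of 6 tested endothelial markers 3 had values above 0 and 3 below, and 1 of them, Tek, the brightest, fell (-1.64 ± 0.12). The sum over 7 endothelial markers ran from 4166 to 4774 in GFP-positive and from 10413 to 11386 in GFP-negative samples. The array titles open with the letters RG (GFP-positive replicates 1 and 2, GFP-negative replicate 1) or KM (the other samples), so that the letters are unevenly spread over the groups. Their meaning was not given; differences within each set of letters are printed beside the results.

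Few chaperone genes passed the test between the populations. Of the 52 tested members none rose and 2 fell in GFP-positive cells, the TRiC subunit gene Cct6a and the ribosome-associated J-domain gene Dnajc2 (limma, Benjamini-Hochberg adjusted p under 0.05). That is 3.85% of members, against 15.8% of all tested genes (8.65% higher and 7.17% lower). At an unadjusted p under 0.05, 6 members were higher, against a background of 15.1%, and 7 were lower, against 15.7%. The GFP-positive samples lay wholly above the GFP-negative ones for 4 members, where 17.7% of all genes did so, and wholly below for 12, where 18.8% did. Fitted differences were above 0 for 17 members and below 0 for 35, with 52.7% of all genes below 0. The median log2 difference was -0.09 over the members and -0.02 over all genes, and 84.6% of members lay within 0.5 of 0, as did 79.4% of all genes. The median standard error (SE) was 0.13 for members and 0.14 for all genes. In bulk RNA of sorted cells, fewer cells of a type and less RNA per cell cannot be told apart.

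Where a gene had several tested probes, it was represented by the brightest one, and 15 members had more than 1. Counted by probe, 1 of 67 member probes was higher and 5 were lower, against 7.85% and 7.77% of all 13727 tested probes. The probe-level calls added Hspa1a as higher and Hspb8 and Dnajb6 as lower, each from its dimmer probe. These 3 second probes, and the members outside the naming rule for which array values are given below (Hspb6, Hspa2, Hspa4, Dnajc15, Dnajc27, Dnajc8 and Dnaja1), were singled out after their values were seen.

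**Figure D1:**
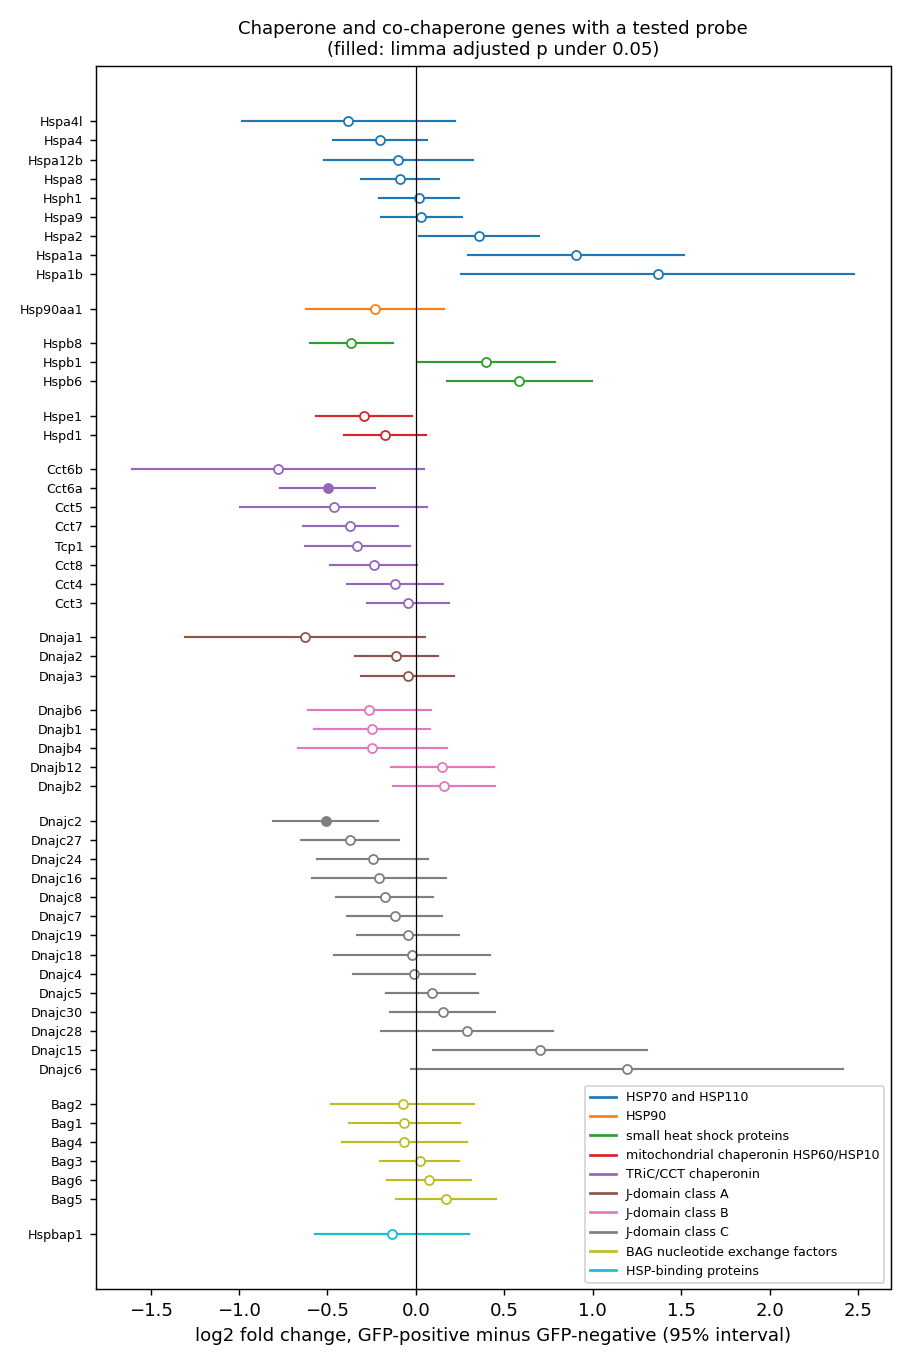
Log2 fold change of each of the 52 tested members, GFP-positive minus GFP-negative, from the brightest tested probe, with its 95% interval from limma, grouped and coloured by class. The filled points are the genes past an adjusted p of 0.05, Cct6a and Dnajc2, and all 8 TRiC subunit genes lie left of 0.

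The stress-inducible members did not share a direction. All 8 of them were tested (Hspa1a, Hspa1b, Hsp90aa1, Hsph1, Dnajb1, Hspb1, Hspb8 and Bag3); 5 had values above 0 and 3 below, with a median of 0.02, and none passed the threshold with its brightest probe. The largest positive differences were those of Hspa1a and Hspa1b, which encode the inducible cytosolic HSP70 and lie next to each other on chromosome 17.

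Hspa1a read 13.46, 13.65 and 13.38 (normalized log2 intensity) in GFP-positive replicates 1, 2 and 3 and 13.20, 12.30 and 12.26 in GFP-negative replicates 1, 2 and 3. Every GFP-positive sample was above every GFP-negative one, and GFP-negative replicate 1 was the nearest to them. The difference was 0.91 ± 0.26 (SE; limma adjusted p = 0.0579); the RG arrays alone gave 0.35 and the KM arrays alone 1.10. It passed the threshold under 7 of 17 other settings (adjusted p from 0.00411 to 0.179). The dimmer Hspa1a probe read 9.89, 9.70 and 8.97 in GFP-positive and 8.47, 7.66 and 7.67 in GFP-negative samples, again without overlap. It was 3.0-fold higher in GFP-positive cells (log2 1.59 ± 0.31, limma adjusted p = 0.0169), and the RG arrays alone gave 1.33 and the KM arrays alone 1.30. Its call was lost without GFP-positive replicate 2 (1.49), GFP-negative replicate 2 (1.45) or GFP-negative replicate 3 (1.45), and with no detection filter.

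For Hspa1b the values were 11.35, 10.79 and 10.12 in GFP-positive and 10.37, 8.83 and 8.97 in GFP-negative samples. The groups overlapped, because GFP-negative replicate 1 read higher than GFP-positive replicate 3. The difference of 1.37 ± 0.47 did not pass (limma adjusted p = 0.0998), and the RG and KM arrays taken alone gave 0.71 and 1.22. It passed under 3 of 17 other settings (adjusted p from 0.0235 to 0.273), the omission of GFP-negative replicate 1 (1.85) among them. Without that array Hspa1a was also past the threshold (1.21). Hspa1a and Hspa1b are near-identical copies, so signal of the pair may be shared between their probes; this was not tested by probe sequence. Over the pair, the median deviation from each probe's mean was 0.85, 0.66 and 0.19 in GFP-positive replicates 1, 2 and 3 and 0.23, -0.99 and -0.94 in GFP-negative replicates 1, 2 and 3. Of the 4 mural markers detected on all 6 arrays, Acta2, Des and Myh11 also read highest on replicate 1 among the GFP-negative samples (Acta2 11.91 there, and 11.49 and 11.52 in replicates 2 and 3), whereas Notch3 read lowest there (7.15, against 7.43 and 7.29). In GFP-positive samples Acta2, smooth muscle actin, read 12.31, 12.84 and 12.63. The part of mural cells in the Hspa1a and Hspa1b values was not tested.

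**Figure D2:**
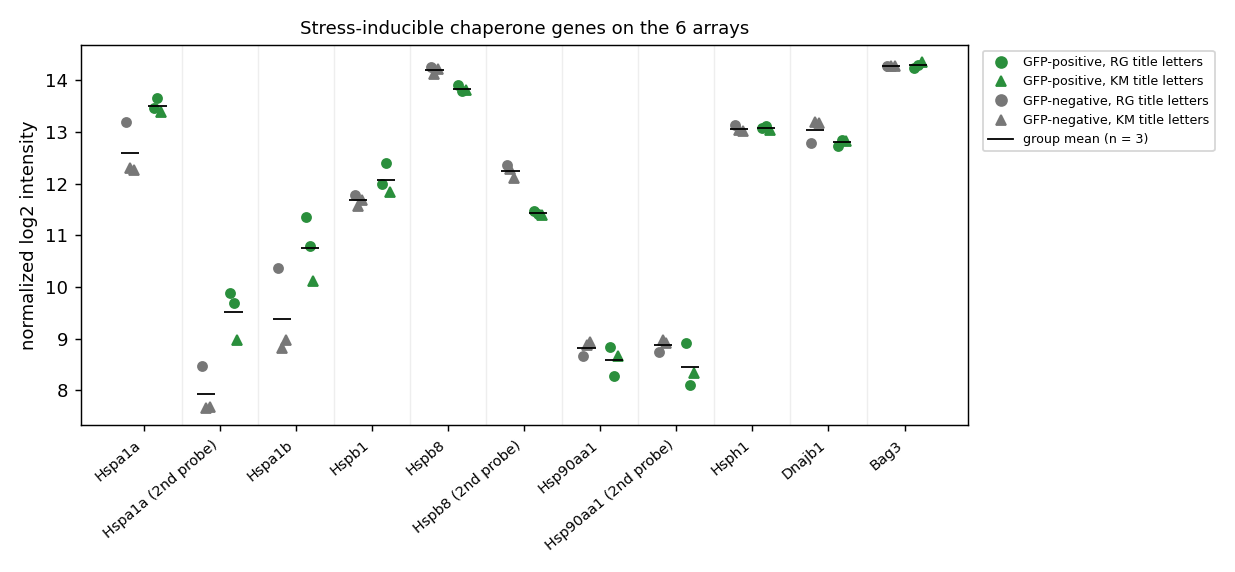
Normalized log2 intensity of the 8 stress-inducible members on each of the 6 arrays, with the second tested probe where there is one; circles are RG and triangles KM arrays, green GFP-positive and grey GFP-negative, and lines are group means (n = 3). The Hspa1a and Hspa1b probes show the largest differences between group means, with GFP-negative replicate 1 above the other GFP-negative samples. The Hspa1b groups overlap, whereas both Hspb8 probes lie lower in GFP-positive samples without overlap. Levels of different probes cannot be compared.

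Hspb8, a small heat shock protein that works with Bag3 in the disposal of damaged proteins, differed in the opposite direction. Its brighter probe read 13.90, 13.79 and 13.81 in GFP-positive and 14.26, 14.13 and 14.21 in GFP-negative samples. All GFP-positive samples lay below all GFP-negative ones, with a difference of -0.37 ± 0.10 that narrowly missed the threshold (limma adjusted p = 0.0501). It passed under 6 of 17 other settings (adjusted p from 0.00299 to 0.138). The dimmer Hspb8 probe read 11.47, 11.41 and 11.40 in GFP-positive and 12.36, 12.28 and 12.12 in GFP-negative samples. By this probe Hspb8 was 1.78-fold lower in GFP-positive cells (log2 -0.83 ± 0.11, limma adjusted p = 0.00341). The RG and KM arrays taken alone gave -0.93 and -0.80, and the call held under all 16 settings that give a value for this probe (-0.92 to -0.78).

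Bag3 itself, the stress-inducible partner of Hspb8, read 14.24, 14.29 and 14.36 in GFP-positive and 14.28, 14.27 and 14.27 in GFP-negative samples. The ranges overlapped, and the difference of 0.02 had a 95% interval from -0.20 to 0.25. Its sign turned to -0.15 with median scaling, in which each array was shifted to the same median. Hspb1, the broadly expressed small heat shock protein known as HSP25 in mice, read 11.99, 12.40 and 11.84 in GFP-positive and 11.78, 11.57 and 11.69 in GFP-negative samples. Its groups did not overlap, although the gap between GFP-positive replicate 3 and GFP-negative replicate 1 was small beside the spread within GFP-positive cells. The difference of 0.40 ± 0.16 did not pass (limma adjusted p = 0.155).

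In the other inducible members the groups overlapped. Hsph1, an HSP110 that recharges HSP70 with ATP, read 13.08, 13.12 and 13.04 against 13.13, 13.03 and 13.02, a difference of 0.02 (95% interval -0.21 to 0.25) that read -0.09 with median scaling. Dnajb1, the main J-domain partner of inducible HSP70, read 12.73, 12.84 and 12.82 against 12.78, 13.19 and 13.17, with overlap at GFP-negative replicate 1 (-0.25 ± 0.14, limma adjusted p = 0.278). Hsp90aa1, the inducible HSP90, read 8.83, 8.29 and 8.66 against 8.66, 8.88 and 8.93 (-0.23 ± 0.17), and its second probe differed by -0.42 ± 0.21 (limma adjusted p = 0.237). Apart from Hspa1a and Hspa1b, the median deviation of the inducible members stayed between -0.04 and 0.09 on every array.

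Most constitutive members had values below 0, as did 52.7% of all tested genes. Of these 71, which are all members outside the inducible list, 44 were tested. They had 12 values above 0, 32 below 0, a median of -0.11 and the 2 calls already named. The cytosolic HSP70 of unstressed cells, Hspa8, read 14.33, 14.36 and 14.36 in GFP-positive and 14.43, 14.47 and 14.41 in GFP-negative samples. The groups did not overlap, but the difference was only -0.09 (95% interval -0.31 to 0.13; limma adjusted p = 0.564). At the second Hspa8 probe the groups overlapped, with a difference of -0.055 ± 0.10. Hspa9, the HSP70 of mitochondria, differed by 0.03 (95% interval -0.20 to 0.26) and by -0.15 with median scaling. Its second probe differed by -0.19 ± 0.13, with overlap. Hspa2, best known from male germ cells, read 12.84, 13.03 and 12.88 against 12.83, 12.45 and 12.41. GFP-negative replicate 1 almost reached the GFP-positive samples, and the difference was 0.36 ± 0.14 (limma adjusted p = 0.147). At the second Hspa2 probe the groups overlapped, with a difference of 0.12 ± 0.14. The HSP110 gene Hspa4 read 9.80, 9.55 and 9.53 against 9.80, 9.86 and 9.83 (-0.20 ± 0.11), with GFP-positive replicate 1 and GFP-negative replicate 1 at nearly the same level. Hspa4l and Hspa12b differed by -0.38 and -0.10 with overlapping groups.

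Hspd1 and Hspe1, the HSP60 ring and HSP10 lid of the mitochondrial chaperonin, are transcribed in opposite directions from the stretch shown above. Hspd1 read 12.95, 12.95 and 12.97 in GFP-positive and 13.08, 13.23 and 13.09 in GFP-negative samples, and Hspe1 read 9.08, 9.31 and 9.24 against 9.61, 9.51 and 9.40. In both genes every GFP-positive sample lay below every GFP-negative one. Neither passed the threshold: the differences were -0.17 ± 0.10 for Hspd1 and -0.29 ± 0.11 for Hspe1 (limma adjusted p = 0.279 and 0.135).

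At their brightest tested probes the TRiC subunit genes all had lower fitted values in GFP-positive cells, where 52.7% of all tested genes had values below 0. Of 10 members 8 were tested, and their median difference was -0.35. One of them passed the threshold (1 of 8, beside a background of 7.17% of genes lower). Cct6a, the zeta subunit, read 11.62, 11.60 and 11.51 in GFP-positive and 11.99, 12.24 and 11.99 in GFP-negative samples. All GFP-positive samples were below all GFP-negative ones, with GFP-negative replicate 2 the highest. Cct6a was 1.41-fold lower in GFP-positive cells (log2 -0.50 ± 0.11, limma adjusted p = 0.0292), with -0.38 from the RG and -0.61 from the KM arrays alone. Its second probe read 11.09, 11.05 and 11.19 against 11.64, 11.94 and 11.58 and was 1.53-fold lower (log2 -0.61 ± 0.13, limma adjusted p = 0.0220). The call of the first probe was lost without any 1 of the arrays other than GFP-negative replicate 1 (-0.54 to -0.41), and with the title letters or the replicate number as a block. That of the second was lost without GFP-positive replicate 1 (-0.61), GFP-positive replicate 2 (-0.58) or GFP-negative replicate 2 (-0.50), and with the replicate number as a block.

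Among the other TRiC subunits, Cct7, Cct8 and Tcp1 also had groups without overlap but did not pass. With Cct6a that made 4 of 8 tested subunits wholly below, where 18.8% of all tested genes were. Cct7 read 8.64, 8.59 and 8.49 against 8.83, 8.91 and 9.09 (-0.37 ± 0.11, limma adjusted p = 0.0720). Cct8 read 13.02, 12.87 and 12.83 against 13.19, 13.12 and 13.12 (-0.24 ± 0.10, adjusted p = 0.168). In Tcp1, the alpha subunit, the values 11.69, 11.48 and 11.66 stood against 11.91, 12.12 and 11.80 (-0.33 ± 0.13, adjusted p = 0.128), whereas its dimmer second probe differed by 0.18 ± 0.18. The probes thus disagreed in sign for Tcp1. Cct3 differed by -0.04 ± 0.10 at its brighter probe and by -0.65 ± 0.18 at the dimmer one (adjusted p = 0.0581). The values of Cct4 and Cct5 were -0.12 ± 0.12 and -0.46 ± 0.22, with overlap, and Cct5 passed without GFP-positive replicate 3 (-0.70). Cct6b, in mice chiefly a testis form of the zeta subunit, was dim and gave -0.78 ± 0.35. Cct2 and Cct8l1 were not detected on any array. The median deviation of the 8 tested subunits was -0.09, -0.20 and -0.20 in the GFP-positive and 0.13, 0.12 and 0.13 in the GFP-negative samples, and the class median was -0.28 from the RG and -0.30 from the KM arrays alone.

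**Figure D3:**
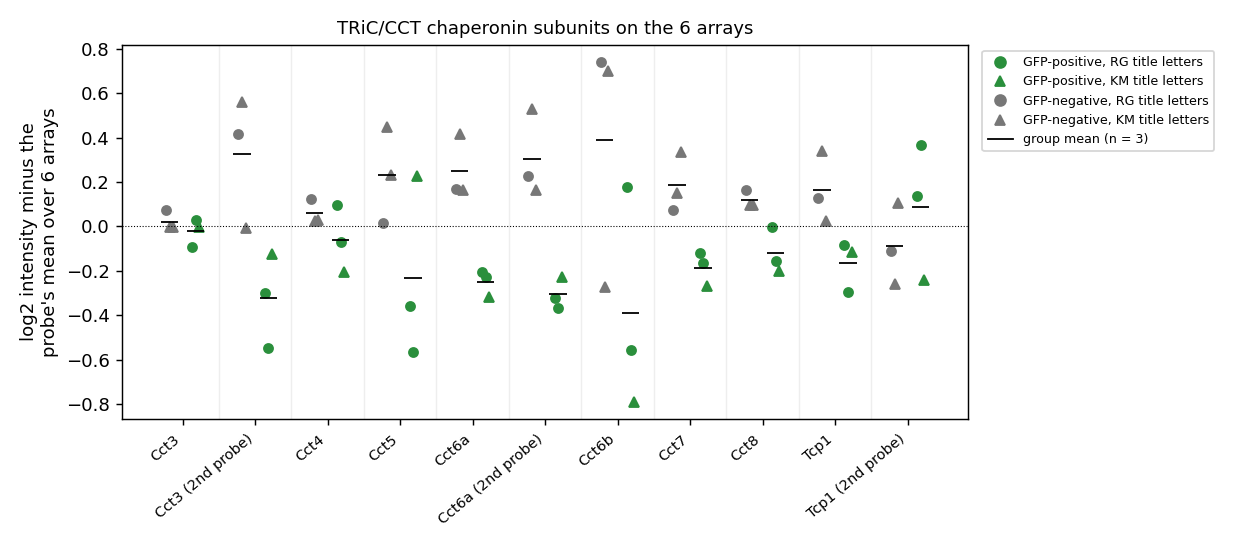
Log2 intensity of each TRiC probe on each array minus that probe's mean over the 6 arrays, with RG arrays as circles and KM arrays as triangles; lines are group means (n = 3). GFP-positive samples (green) lie below GFP-negative ones (grey) without overlap for Cct6a at both probes, Cct7, Cct8, Tcp1 at its brighter probe and Cct3 at its dimmer probe.

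Dnajc2, a J-domain protein that sits on ribosomes and acts on new protein chains, read 8.26, 8.23 and 8.08 in GFP-positive and 8.51, 8.82 and 8.78 in GFP-negative samples. The groups did not overlap, with GFP-negative replicate 1 the closest to the GFP-positive samples. Dnajc2 was 1.42-fold lower in GFP-positive cells (log2 -0.51 ± 0.13, limma adjusted p = 0.0375), with -0.26 from the RG and -0.72 from the KM arrays alone. The call was lost without any 1 of the arrays other than GFP-negative replicate 1 (-0.55 to -0.45), with either block, and with a looser or no detection filter, 9 of 17 settings in all. Its HSP70-type partner on the ribosome, Hspa14, was not detected on any array.

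Of the 37 J-domain genes 22 were tested, and none other than Dnajc2 passed by its brightest probe, beside 15.8% of all genes. Dnajb6, a suppressor of protein aggregation, differed by -0.26 ± 0.15 at that probe. Its dimmer probe read 8.29, 8.52 and 8.41 in GFP-positive and 8.90, 9.01 and 9.01 in GFP-negative samples, with no overlap. By this probe Dnajb6 was 1.48-fold lower (log2 -0.56 ± 0.11, limma adjusted p = 0.0157); the call was lost without GFP-negative replicate 2 (-0.55) or GFP-negative replicate 3 (-0.54). Dnajc27, which carries a Rab-like GTPase domain, read 7.23, 7.42 and 7.36 against 7.74, 7.83 and 7.56 (-0.37 ± 0.12, adjusted p = 0.0774), without overlap. Dnajc8 also lay below without overlap, by -0.18 ± 0.12. Dnajc15, a J-domain protein of the inner mitochondrial membrane, read 7.52, 7.97 and 8.15 against 7.66, 7.04 and 6.83, with overlap at GFP-positive replicate 1 (0.70 ± 0.25, adjusted p = 0.114), and passed without GFP-negative replicate 1 (0.94). For the HSP70 partner gene Dnaja1 the value differed between the array letters: its values of 6.50, 7.27 and 6.54 against 6.89, 7.61 and 7.70 gave -0.0045 from the RG and -1.11 from the KM arrays alone (-0.63 ± 0.29 in all). The largest J-domain value, 1.19 ± 0.51 for the clathrin-uncoating factor gene Dnajc6, came from a dim probe with overlapping groups. Across the classes the values ran from -0.63 to -0.05 in A, from -0.26 to 0.16 in B and from -0.51 to 1.19 in C, and 15 J-domain members were not tested.

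Of the 8 small heat shock protein genes 3 were tested, Hspb1 and Hspb8 being inducible and Hspb6 constitutive. Hspb6, a small heat shock protein abundant in smooth and striated muscle, read 9.12, 9.29 and 9.44 in GFP-positive and 9.03, 8.47 and 8.59 in GFP-negative samples. The groups did not overlap, and GFP-negative replicate 1 was again the nearest. The difference was 0.59 ± 0.17 (limma adjusted p = 0.0655), with 0.17 from the RG and 0.91 from the KM arrays alone; it passed under 5 of 17 other settings (adjusted p from 0.0239 to 0.200), among them without GFP-negative replicate 1 (0.75). Hspb2 was detected on 2 GFP-positive arrays and on no GFP-negative array, too few to be tested. It was the member called higher with a looser detection filter. It passed that filter only through GFP-positive samples, so the call is not independent of the filter. Among the mural markers, the smooth muscle myosin gene Myh11 read 8.54, 8.95 and 9.24 in GFP-positive and 7.45, 7.01 and 6.87 in GFP-negative samples, and the Notch receptor gene Notch3 read 8.31, 8.26 and 8.55 against 7.15, 7.43 and 7.29. GFP-negative replicate 1 was thus the highest of its group for Myh11 and the lowest for Notch3. Of 7 skeletal and cardiac muscle markers, Ckm, Myh1, Myh4 and Actc1 were not detected on any array, and the summed intensity of the list ran from 1200 to 1461 in GFP-positive and from 1455 to 1655 in GFP-negative samples. The part of mural cells in the Hspb6 value was not tested.

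The 6 BAG genes were all tested and differed by -0.07 to 0.17, with overlapping groups in each and a median of -0.02. Bag5 had the highest value (0.17 ± 0.12) and its second probe gave 0.06; Bag6 differed by 0.07, Bag1 by -0.06, Bag2 by -0.07 and Bag4 by -0.06. The signs of Bag1, Bag2 and Bag4 turned when single arrays were left out. Hspbap1, which binds Hspb1, differed by -0.13 ± 0.18, and Hspbp1 was not detected.

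**Figure D4:**
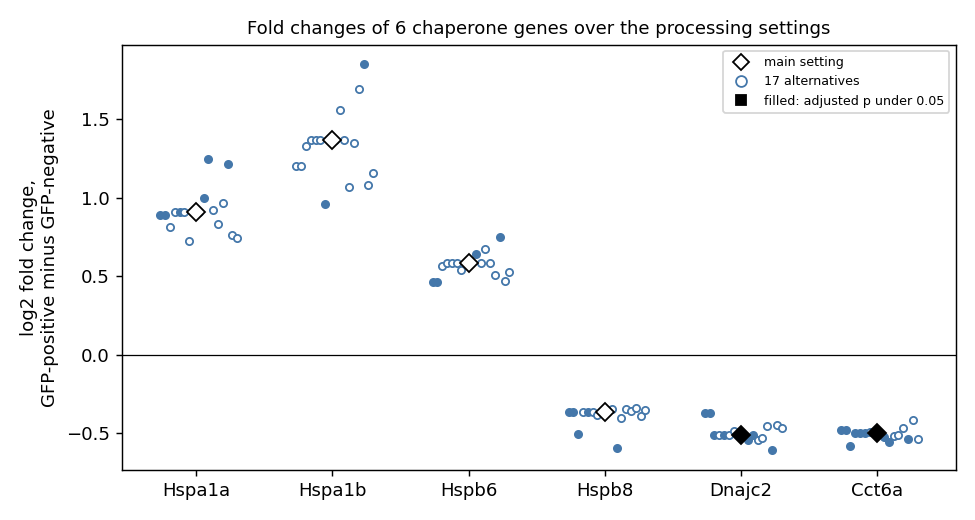
Log2 fold change of 6 members at their brightest probe under the main setting (diamond) and the 17 other settings (circles), filled where the adjusted p is under 0.05. No value crosses 0, Hspa1a, Hspa1b, Hspb6 and Hspb8 pass only under some of the other settings, and Cct6a and Dnajc2 lose their call under some.

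Genes that act with the chaperones outside the naming rule were also counted. Of 22 heat shock factors and other co-chaperones 17 were tested; 2 rose and none fell, beside backgrounds of 8.65% and 7.17%, and the median was -0.03. Fkbp5, a peptidyl-prolyl isomerase that works with HSP90 on steroid receptors, read 11.14, 11.11 and 11.27 against 10.62, 10.79 and 10.73 (0.46 ± 0.11, limma adjusted p = 0.0293). Cryab, the small heat shock protein αB-crystallin, read 9.58, 9.41 and 9.73 against 8.99, 9.12 and 9.18 (0.47 ± 0.12, limma adjusted p = 0.0446). In both genes the groups did not overlap. The Fkbp5 call was lost without any 1 of the 6 arrays (0.41 to 0.50), with median scaling and with the replicate number as a block. That of Cryab was lost without any 1 other than GFP-positive replicate 2 (0.40 to 0.51), with median scaling, with a looser or no detection filter and with the replicate number as a block. Cryab is also abundant in muscle. Mural markers were higher in GFP-positive cells too. Among GFP-negative samples Cryab and the mural marker Notch3 read lowest on replicate 1, where Acta2, Des and Myh11 read highest. The part of mural cells in the Cryab value was not tested. The transcription factor gene Hsf2 (-0.42 ± 0.14), the HSP90 activator gene Ahsa1 (-0.37 ± 0.13) and Stip1, which links HSP70 to HSP90 (-0.30 ± 0.12), had GFP-positive samples below GFP-negative ones and did not pass. With Hsbp1 (-0.15 ± 0.11) that made 4 of 17 wholly below, beside 18.8% of all tested genes, and 2 of 17 lay wholly above, beside 17.7%. Of 6 prefoldin genes, which hand actin and tubulin to TRiC, 4 were tested and none passed, beside 15.8% of all tested genes. Pfdn2 and Pfdn4 differed by -0.47 ± 0.17 and -0.31 ± 0.12 and lay wholly below, as did 18.8% of all tested genes. Pfdn5 and Vbp1 differed by 0.17 ± 0.14 and 0.13 ± 0.15, with overlap, and the median of the 4 was -0.09.

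Of the 6 chaperone genes of the endoplasmic reticulum that were left out by name, 5 were tested and 1 fell, beside 7.17% of all genes. Hspa5, the HSP70 of that compartment, read 10.10, 10.32 and 10.13 against 10.52, 10.69 and 10.72 (-0.46 ± 0.12, limma adjusted p = 0.0410), and its call was lost without any 1 array other than GFP-positive replicate 2 (-0.52 to -0.41), with the title letters or the replicate number as a block, and with a looser or no detection filter. Immediate early genes, which like the inducible chaperones respond to cell isolation, were counted beside them: 10 of 13 were tested, 1 fell and none rose, beside 7.17% and 8.65% of all genes, with a median of -0.11. The call was that of Junb, which read 12.07, 12.38 and 12.08 against 12.91, 12.74 and 12.93 (-0.68 ± 0.13, limma adjusted p = 0.0149) and was lost without GFP-negative replicate 3 (-0.65) or with the replicate number as a block. Of the 10, 8 had values below 0, beside 52.7% of all genes, and 4 lay wholly below, beside 18.8%. Atf3 (-0.48 ± 0.13, limma adjusted p = 0.0530) and Zfp36 (-0.37 ± 0.15) were among these and did not pass. Fos and Egr1 differed by 0.11 and -0.02, with overlap.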

How the data were processed

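Total RNA was amplified in 2 rounds and biotin-labelled, per the labels' protocols. The main values were probe intensities on a linear scale, deposited un-normalized beside detection p-values, per the file headers; GenomeStudio is named in the submitters' processing notes. The authors' second table of intensity values had 1 common distribution and was used as an alternative. Intensities were processed with neqc in limma 3.58.1 (R 4.3.3): background was inferred from the detection values, 16 was added as an offset, and arrays were quantile-normalized and put on the log2 scale. Tested were the 13727 of 45281 probes that at least 3 of the 6 arrays detected (detection p under 0.01). The test was 2-sided (lmFit, eBayes); p-values were adjusted across these probes by Benjamini-Hochberg and called under 0.05. A gene was its tested probe with the highest mean. Differences are GFP-positive minus GFP-negative on the log2 scale.

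Of the probes, 34885 had 1 symbol in the platform annotation, 18 had several and 10378 had none. All 147 member probes were found in a RefSeq table of GRCm38.p6, which changed 0 symbols. Promoter windows were scanned in Python 3.11.15. The members, lists and classes were chosen with earlier results of these data known. Named were all members past the threshold, the inducible members, the TRiC and BAG genes and Hspa8, Hspa9, Hspd1, Hspe1 and Hspa14; Hsp90ab1, also on that list, was not analysed here. Alternatives changed the background correction, normalization, detection filter, block, variance prior, array weights, probe choice and arrays used. Same-numbered samples did not deviate together (r = -0.07, -0.20 and 0.07), so the numbers were not taken as pairs. The fit was tested on simulated data, where a larger share of its calls fell on unchanged probes than the nominal 0.05, so a call near the threshold is less firm than its adjusted p reads. A first criterion for recovery of large changes was narrowly missed there and was replaced after that was seen. The number of arrays limits the precision.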

Additional observations from a re-analysis of the deposited data

How the results depend on the processing

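The count of members higher in GFP-positive cells, 0 in the setting reported, was 2 without background correction, with the authors' normalized values, with an intensity trend and robust prior and with array weights. It was 1 with detection on at least 1 array, on all 6 arrays, with no detection filter, with the title letters as a block, with a replicate block and with the mean of a gene's probes, and 0 to 4 when single arrays were left out, 4 without GFP-negative replicate 1. The count lower, 2 as reported, was 3, with Hspb8 added, without background correction, with the authors' values, with median scaling, with detection on all 6 arrays, with the intensity trend and with the mean of probes. It was 1 with detection on at least 1 array and with no detection filter, 0 with the title letters as a block and with the replicate block, and 0 to 2 with single arrays left out. The member higher under both blocks was Hspa1b. Under the replicate block Cct6a (-0.50) and Dnajc2 (-0.51) no longer passed (limma adjusted p = 0.0729 and 0.0950; over all settings 0.00597 to 0.103 and 0.0255 to 0.134). Signs turned with median scaling for Hsph1 (-0.087), Bag3 (-0.15) and Hspa9 (-0.15), a setting that moved the median of all genes to -0.07; with the title letters as a block for Hsph1 (-0.0061) and Bag2 (0.0017); with the mean of probes for Hspa9 (-0.078); and with single arrays left out for Bag3 (-0.0069 to 0.048), Hspa9 (-0.0071 to 0.049), Bag1 (-0.14 to 0.062), Bag2 (-0.18 to 0.11) and Bag4 (-0.15 to 0.077). The causes were not tested. Counted by gene, all tested TRiC values stayed below 0 except 1 of 10 with no detection filter. The dimmer Tcp1 probe, not part of that count, was above 0 in the setting reported (0.18). With 3 arrays a group, small differences in these genes were not measurable, and probes near background have wide intervals.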
